A study of Mus musculus with 6 samples.

Results

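The genes described here encode 9 components of the basement membrane, the thin sheet of extracellular matrix under the basal keratinocytes of the epidermis and hair follicle. They are *Lama3*, *Lamb3*, *Lama5*, *Lamb1* and *Lamc1* (laminin chains), *Nid1* (nidogen-1), *Col4a1* and *Col4a2* (type IV collagen chains) and *Hspg2* (perlecan). They were chosen by name and not by a cutoff on a measured value, though with earlier results of these data known. All 9 were found among the 22295 genes of the count table. Their RNA was counted in GFP-positive keratinocytes that had been isolated by FACS from the epidermis of 3 K19 *Itga3* WT and 3 K19 *Itga3* KO mice, with 1 strand-specific library per mouse. Mice of both groups were bred on FVB and carried K19(Cre-ERT), a tamoxifen-inducible Cre recombinase under the K19 promoter, and mTmG, a reporter that turns from red to green fluorescence once Cre has acted. The KO mice carried floxed *Itga3* (Itga3 fl/fl) in addition. The K19 promoter is active in the hair bulge (HB), the stem cell niche of the hair follicle, so the sorted cells were HB keratinocytes and their progeny, and not the whole epidermis. Per the labels, both groups received tamoxifen (10 mg/ml, 4 days) at 6 weeks of age, a single dose of the mutagen DMBA (30 µg in 200 µl acetone) at 7 weeks, and then about a fortnight of bi-weekly TPA (12.34 µg in 200 µl acetone), a tumor promoter; the study's methods give another tamoxifen schedule. Untreated mice were not part of the series, so a difference between the groups is one between treated animals. The 3 libraries of each group are named a, b and c here, in the order of the count table, and the letters tie no WT library to a KO library.

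Laminins are trimers of an α, a β and a γ chain that assemble into a network on the cell surface. The laminin with the α3 and β3 chains is the main laminin of hemidesmosomes, the junctions that anchor basal keratinocytes, and laminin α5β1γ1 is the other abundant laminin of the epidermal and follicular basement membrane. Integrin α3β1, whose α subunit *Itga3* encodes, is a receptor for both, and the question that the comparison addresses is what its loss from HB cells changes at the initiation stage of skin tumorigenesis. Type IV collagen forms a second network, with α1 and α2 chains in nearly every basement membrane and α3 to α6 chains in some, while nidogens and perlecan link the laminin and collagen networks.

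The libraries held 20578309 to 23670507 counts, and 3 counts, taken as the floor of detection, corresponded to 0.127 to 0.145 CPM (counts scaled to a common library size, with edgeR's TMM factors). The targeted gene, *Itga3*, was at 371, 252 and 271 CPM in the WT and 131, 124 and 134 CPM in the KO libraries, a log2 fold change of -1.20 ± 0.13 (SE, adjusted p = 0.00283, edgeR quasi-likelihood test). Its adjusted p was 0.130 without WT c and 0.0934 without KO a. This count covers the whole gene, not the floxed part alone. The gene lies on chromosome 11, which holds none of the 9 genes. The labels give no sex, and WT b stood apart in sex-linked genes. *Xist*, expressed from the inactive X chromosome of females, had 22249 counts in WT b and 1 to 3 in each other library, and *Ddx3y*, on the Y chromosome, 16 in WT b and 1502 to 2445 in the others. Without WT b *Lamb1* was again the 1 of the 9 genes called (log2 fold change 0.74, adjusted p = 0.0499, edgeR), and no estimate of the 9 changed direction. The keratinocyte genes *Krt5*, *Krt14* and *Krt15* were high in both groups, with *Krt5*, a basal keratin, at 19738 ± 4970 CPM in WT and 19383 ± 1602 CPM in KO (SD, n = 3). Of the HB markers, *Cd34* was lower in KO (log2 fold change -0.72, adjusted p = 0.0462, edgeR, and 0.0685, 0.379, 0.250 and 0.184 without WT b, WT c, KO a and KO c in turn), and *Lgr5* was at 586 ± 116 CPM in WT and 424 ± 92.1 CPM in KO (adjusted p = 0.283, edgeR). *Cd34* was the only one called of 7 HB genes listed. Means of *Krt15* (12516 and 10836 CPM in WT and KO) and *Lhx2* (359 and 333 CPM) were lower in KO. Those of *Sox9* (454 and 506 CPM) and *Tcf3* (169 and 184 CPM) were higher, and *Nfatc1* was alike (390 and 389 CPM). The summed level of the 7 genes was 12392 to 18505 CPM in WT and 11654 to 15092 CPM in KO. The summed level of a list of inner root sheath and hair shaft genes was 11.0 to 15.9 CPM in WT and 16.9 to 35.6 CPM in KO, with 3 of 6 genes called, all higher. Of all genes tested 0.673% were called. The 3 were low, with *Krt25* at 0.395 and 4.36 CPM in WT and KO, *Krt28* at 1.69 and 6.00 and *Krt35* at 0.316 and 2.81. Their adjusted p-values were 0.0256, 0.0461 and 0.0462 (edgeR). The sum was 141 to 187 CPM in WT and 56.8 to 102 CPM in KO for a list of 10 fibroblast genes, mostly *Col1a1* and *Col1a2*, and 6.61 to 9.45 and 4.29 to 5.82 CPM for 9 endothelial genes, and none of these was called. Within these lists *Dcn* (1.03 and 3.70 CPM in WT and KO) and *Vim* (6.65 and 9.11 CPM) had higher means in KO. *Tek* (3.72 and 1.32 CPM) carried the lower endothelial sum, whereas *Pecam1* was at 0.964 to 1.41 CPM in WT and 1.64 to 1.87 CPM in KO (adjusted p = 0.411, edgeR). Several defining markers of these 2 cell types were near the floor. *Col3a1* was at 0 in all WT and in 1 KO library and at 0.128 and 1.40 CPM in the others, and *Cdh5* was at 0 in all WT and reached 0.0850 CPM in KO. Their part in the results for the 9 genes was not tested, and in sorted cells measured in bulk, fewer cells of a type and less RNA per cell cannot be told apart.

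Only *Lamb1* among the 9 genes differed between KO and WT at an adjusted p below 0.05 (edgeR), and it was higher in KO. That is 1 of 9, where 0.673% of the 21681 genes tested passed, 0.461% higher and 0.212% lower in KO. Of the 9640 genes with a mean of at least 10 CPM, 80 passed as higher and 35 as lower in KO. The estimated level was higher in KO for 7 of the 9 genes and lower for *Lama3* and *Lamb3*, with a median log2 fold change of 0.30. Of these 7, *Lama5* (0.01) and *Col4a2* (0.0003) had estimates near 0, and 10841 of all 21681 genes tested had higher estimates. KO c was the highest library for each of the 7. Under the 12 alternative settings 5 to 7 genes were higher, with a median from 0.06 (without KO c, 5 higher) to 0.43 (without KO a). Over the 8 genes with a mean of at least 10 CPM the median was 0.16, against 0.02 over all 9640 genes at that level. For *Lamb1*, *Lamc1* and *Col4a1* every KO library lay above every WT library, 3 of 9 genes, whereas the groups did not overlap for 16.3% of all genes tested and for 22.4% of those with at least 10 CPM. Unadjusted p-values (edgeR) were below 0.05 for *Lamb3* besides these 3 genes, 4 of 9. They were below 0.05 for 2503 of the 21681 genes tested and for 1610 of the 9640 with at least 10 CPM.

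**Figure D1:**
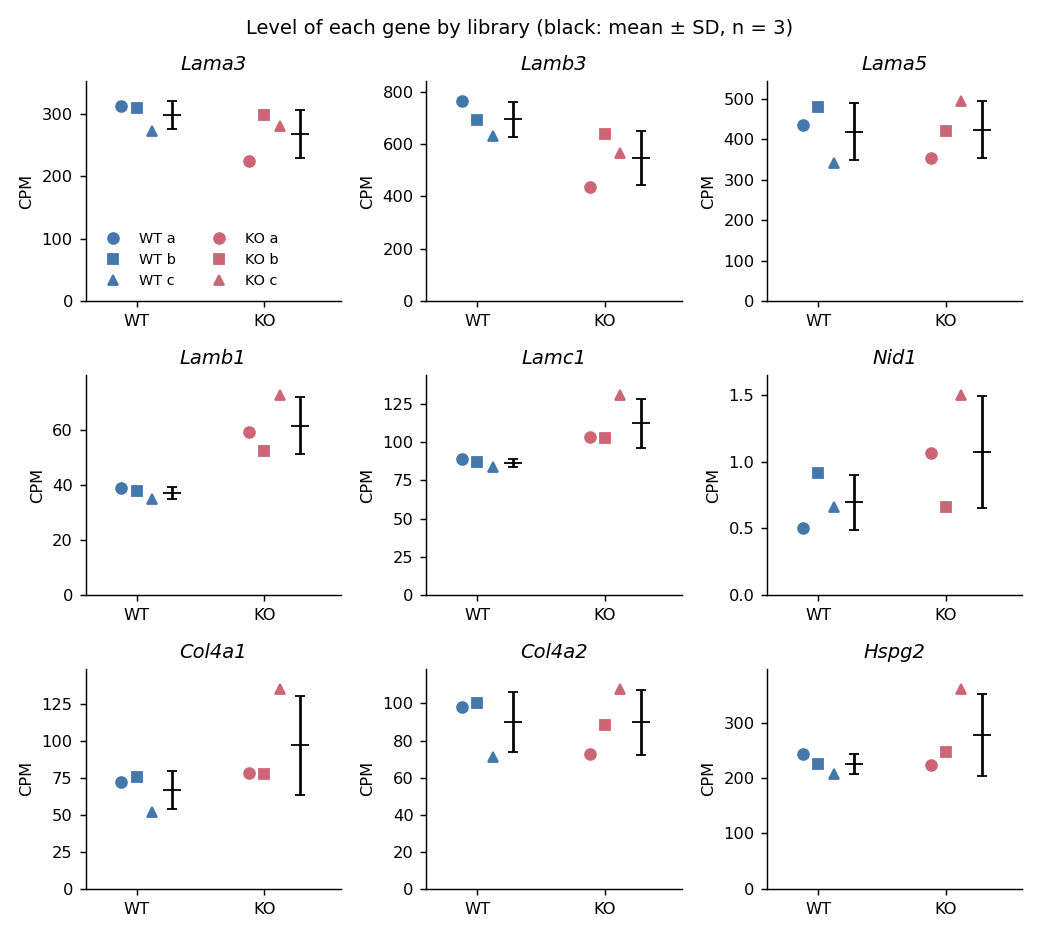
Levels of the 9 basement membrane genes in CPM (y axes, linear and starting at 0, a separate scale per gene) in the 3 WT and 3 KO libraries. Each point is 1 mouse and the bars are the mean and SD. The KO points of *Lamb1*, *Lamc1* and *Col4a1* lie above all WT points, and for the other 6 genes the groups overlap.

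**Figure D2:**
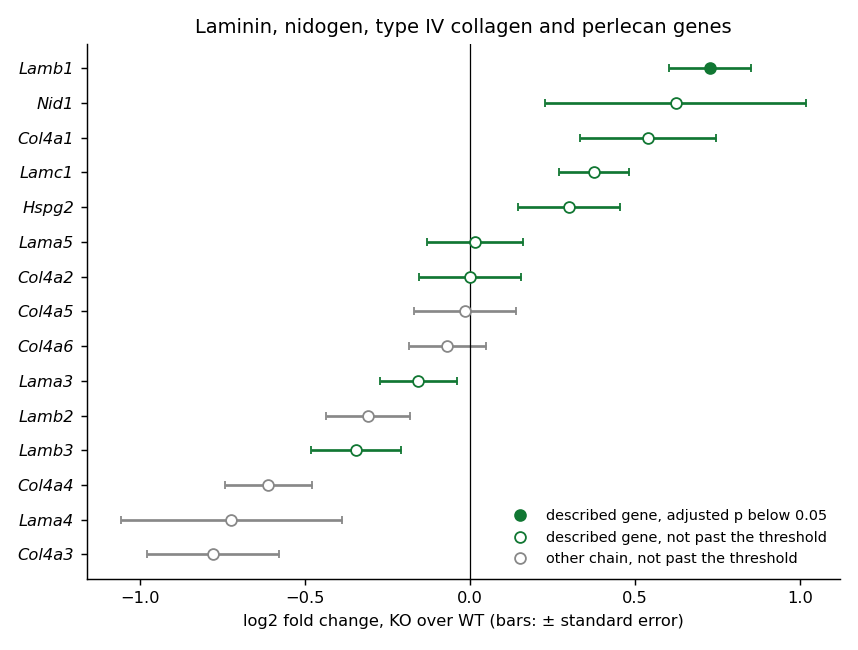
Log2 fold change of KO against WT (x axis) with its standard error for the 9 genes and other laminin and type IV collagen chains, from the edgeR fit. *Lamb1* (0.73) is the only one with an adjusted p below 0.05, and *Lamb3* (-0.35) has the lowest estimate of the 9 genes.

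The α3 and β3 chains of the hemidesmosomal laminin were abundant in both groups, and neither was called. *Lama3* (ENSMUSG00000024421, chromosome 18, 12333819 to 12583013, plus strand, GRCm38) encodes the laminin α3 chain. In the order a, b and c it was at 313, 310 and 273 CPM in the WT libraries and at 224, 298 and 281 CPM in the KO libraries. WT a and b held the highest values and KO a the lowest, and the groups overlapped, with a log2 fold change of -0.16 ± 0.12 (adjusted p = 0.669, edgeR).

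*Lamb3* (ENSMUSG00000026639, chromosome 1, 193301957 to 193343878, plus strand) encodes the β3 chain, known from this laminin. It was at 764, 691 and 631 CPM in WT and at 435, 637 and 567 CPM in KO, or 695 ± 66.8 and 547 ± 103 CPM (SD, n = 3). KO a was again the lowest library, KO b lay just above WT c, and the log2 fold change was -0.35 ± 0.14 (unadjusted p = 0.0262, adjusted p = 0.341, edgeR). Without KO a the difference was -0.21.

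The chains of the α5β1γ1 laminin did not show 1 common pattern, since *Lamb1* was higher in KO, *Lamc1* did not overlap but was not called, and *Lama5* was alike in mean. *Lama5* (ENSMUSG00000015647, chromosome 2, 180176373 to 180225859, minus strand) encodes the α5 chain. It was at 436, 480 and 342 CPM in WT and at 354, 422 and 495 CPM in KO, with group means of 419 ± 70.7 and 424 ± 70.1 CPM (SD, n = 3). Each group spanned nearly the same range, and the log2 fold change of 0.01 ± 0.14 (adjusted p = 0.999, edgeR) turned to -0.0018 with upper-quartile factors.

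*Lamb1* (ENSMUSG00000002900, chromosome 12, 31265234 to 31329644, plus strand) encodes the β1 chain, which is found in laminins of most tissues. It was at 38.7, 37.8 and 34.7 CPM in WT and at 59.3, 52.2 and 72.6 CPM in KO. The WT libraries lay within a few CPM of each other, the KO libraries were spread more widely and all lay above them, and KO c was the highest. The means were 37.1 ± 2.12 and 61.4 ± 10.3 CPM (SD, n = 3), so that the KO mean was 165% of the WT mean, with a log2 fold change of 0.73 ± 0.12 (SE, adjusted p = 0.0255, edgeR). The exact two-sided permutation test gave p = 0.1, the smallest that 3 against 3 libraries allow. The direction was the same under all 12 alternative settings (0.59 to 0.84), but the adjusted p was 0.105 with limma-voom, 0.116 with filterByExpr, 0.368 without WT c, 0.243 without KO a and 0.121 without KO c. The inner root sheath and hair shaft list named above was also higher in each KO library than in each WT library, and its part in this result was not tested.

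*Lamc1* (ENSMUSG00000026478, chromosome 1, 153218922 to 153332786, minus strand) encodes the γ1 chain, shared by most laminins. It was at 89.1, 87.1 and 83.9 CPM in WT and at 103, 103 and 131 CPM in KO. The groups did not overlap, and KO c was again the highest library, but the log2 fold change of 0.37 ± 0.11 had an unadjusted p of 0.0045 and an adjusted p of 0.159 (edgeR). Over the 12 alternatives it ranged from 0.25 to 0.44.

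The stretches upstream of the first exons annotated in GENCODE M21 are shown for the 2 β chains, whose estimates went in opposite directions. The *Lamb3* stretch runs past the gene start given above from the count table (193301957), so its last bases lie inside the gene as placed there. RefSeq windows (GRCm38.p6, 250 bases before to 50 after a gene start) were given for 7 of the 9 genes, with 2 windows for *Lamb3*. Capitals mark the GC box (GGGCGG or its complement CCGCCC) and the CCAAT box (CCAAT or ATTGG), which are common in promoters, and both strands were searched. The first line is the stretch at the first *Lamb3* start, chr1:193301744.0-193301992.0, and the second that of *Lamb1*, chr12:31265043.0-31265233.0, both on the plus strand.
Lamb3: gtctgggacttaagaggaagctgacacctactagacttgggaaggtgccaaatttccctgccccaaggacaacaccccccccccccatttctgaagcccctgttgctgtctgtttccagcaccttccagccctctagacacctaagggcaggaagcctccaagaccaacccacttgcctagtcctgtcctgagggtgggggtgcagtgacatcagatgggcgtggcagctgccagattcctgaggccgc
Lamb1: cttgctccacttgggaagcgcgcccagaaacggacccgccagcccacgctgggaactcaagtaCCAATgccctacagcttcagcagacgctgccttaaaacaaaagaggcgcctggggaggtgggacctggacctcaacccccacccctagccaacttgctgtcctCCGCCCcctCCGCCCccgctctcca
The *Lamb1* stretch held 2 GC boxes, 84 and 75 bases before the RefSeq start (31265293), and 1 CCAAT box 187 bases before it, whereas the *Lamb3* stretch held neither. GC boxes were found in 6 of the 8 windows of these genes, all but the 2 of *Lamb3*, while 35.7% of all 32851 windows held one. The windows of *Col4a1* and *Col4a2* overlap. The only GC box of *Col4a1* and the 1 that lies 7 bases after the *Col4a2* start are the same bases. CCAAT boxes were found in 4 of the 8 windows, those of *Lamb1*, *Nid1*, *Col4a1* and *Col4a2*, and in 37.4% of all windows. The letters of the AP-1 site (TGACTCA or TGAGTCA), bound by factors that TPA induces, were in none of the 8 windows of these genes and in 5.20% of all windows. Those of a TEAD site (GGAATG or CATTCC) were in 2, the second window of *Lamb3* and that of *Nid1*, and in 14.7% of all windows. These matches describe letters in the windows, and binding was not measured.

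Per kilobase of exon, *Lamb3* was the main β chain in both groups and *Lamb1* the smallest, and *Lamb1* made up a larger part of the β chain RNA in each KO library. Shares were taken of the summed CPM per kilobase within each chain class, which compares chains of unequal length, and they are given without a test. *Lamb1* made up 2.73%, 2.71% and 2.73% of β chain RNA in WT and 6.50%, 4.21% and 6.17% in KO. The groups did not overlap, and the 3 WT shares were nearly identical. The summed β chain level was 138 ± 8.05 CPM per kilobase in WT and 112 ± 17.6 in KO, so the share moved with both *Lamb1* and the chains it is set against. *Lamb3* made up 76.4 ± 3.72% in WT and 73.6 ± 2.95% in KO, and *Lamb2*, the β2 chain, 20.9 ± 3.72% and 20.8 ± 1.71% (SD, n = 3). Among the α chains, *Lama5* made up 55.3 ± 2.45% in WT and 58.8 ± 2.41% in KO and *Lama3* 42.1 ± 2.70% and 39.5 ± 2.75%.

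**Figure D3:**
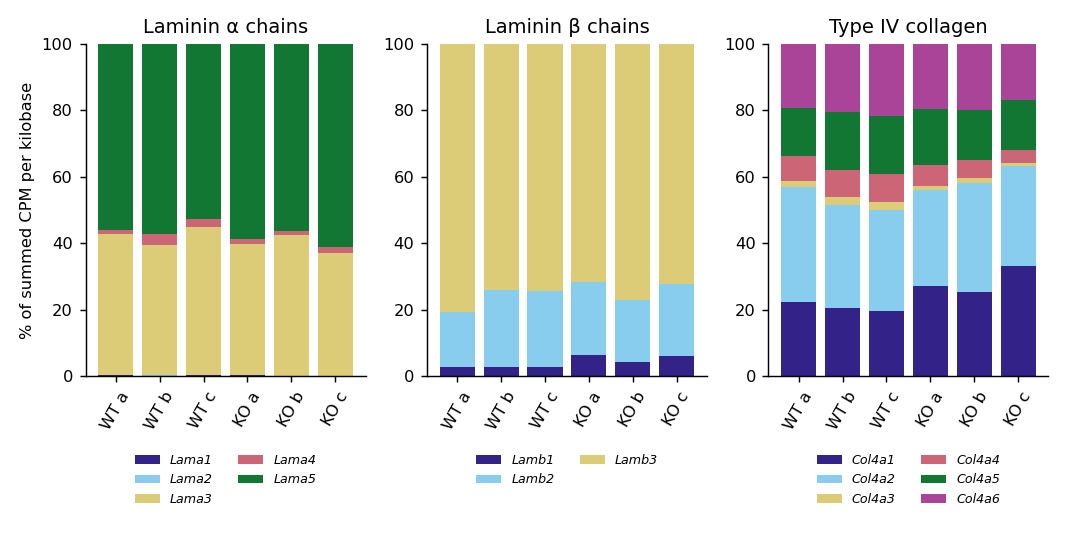
Share of each chain (y axis, percent of the summed CPM per kilobase of its class) in the α and β laminin chains and the type IV collagen chains, one stacked bar per library. The *Lamb1* segment is 2.71% to 2.73% in WT and 4.21% to 6.50% in KO, and the *Col4a1* segment has a mean of 20.9% in WT and 28.7% in KO.

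The linkers of the basement membrane were not called. *Nid1* (ENSMUSG00000005397, chromosome 13, 13437602 to 13512275, plus strand), which encodes nidogen-1, was barely detected, with 11, 20 and 15 counts in WT and 25, 14 and 31 counts in KO. These correspond to 0.505, 0.916 and 0.661 CPM in WT and 1.06, 0.657 and 1.50 CPM in KO. The groups overlapped, and the log2 fold change was 0.62 ± 0.40 (adjusted p = 0.617, edgeR), so no difference was called at these low counts. *Nid2*, the other nidogen gene, had at most 1 count in any library, under the floor of 3.

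*Hspg2* (ENSMUSG00000028763, chromosome 4, 137468769 to 137570630, plus strand) encodes perlecan, a heparan sulfate proteoglycan. It was at 244, 226 and 207 CPM in WT and at 224, 247 and 361 CPM in KO. KO c stood far above the other 5 libraries, KO a lay below WT b, and the groups overlapped. The log2 fold change was 0.30 ± 0.16 (adjusted p = 0.514, edgeR), and it was 0.06 without KO c.

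The 2 main chains of type IV collagen, which assemble into 1 trimer, differed in pattern. *Col4a1* (ENSMUSG00000031502, chromosome 8, 11198423 to 11312826, minus strand) encodes the α1 chain. It was at 72.1, 75.9 and 51.8 CPM in WT and at 78.0, 77.3 and 135 CPM in KO. Each KO library lay above each WT library, yet KO a and b were only a little above WT b, and KO c was the highest by far. The log2 fold change was 0.54 ± 0.21 (unadjusted p = 0.0228, adjusted p = 0.322, edgeR), and 0.22 without KO c.

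*Col4a2* (ENSMUSG00000031503, chromosome 8, 11312805 to 11449287, plus strand) encodes the α2 chain and lies head to head with *Col4a1*. It was at 97.9, 100 and 71.2 CPM in WT and at 73.0, 88.6 and 108 CPM in KO. The groups overlapped, with means of 89.8 ± 16.2 and 89.9 ± 17.5 CPM (SD, n = 3) and an adjusted p of 0.999 (edgeR); its estimated direction turned with the scaling. The gene bodies share 22 bases on opposite strands, and the counts take strand into account.

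Of the minor type IV collagen chains, *Col4a3* and *Col4a4*, whose products join in the α3α4α5 network, lay lower in all 3 KO libraries without overlap, but neither passed. *Col4a4* was at 34.9, 42.7 and 31.6 CPM in WT and at 25.8, 23.6 and 22.0 CPM in KO (log2 fold change -0.61 ± 0.13, adjusted p = 0.0654, edgeR, and 0.00512 with DESeq2). Its adjusted p was 0.151 with limma-voom and 0.134 with edgeR after filterByExpr. With a library left out it lay between 0.0417 (without WT a) and 0.319 (without WT c, edgeR). *Col4a3* was at 8.03, 11.0 and 8.02 CPM in WT and at 4.72, 6.42 and 4.64 CPM in KO (-0.78 ± 0.20, adjusted p = 0.114, edgeR, and 0.0266 with DESeq2). For this gene the adjusted p was 0.198 with limma-voom and 0.170 with edgeR after filterByExpr. With a library left out it lay between 0.0563 (without WT a) and 0.556 (without KO a, edgeR). *Col4a5* and *Col4a6*, which encode the α5 and α6 chains, overlapped, with log2 fold changes of -0.01 ± 0.15 and -0.07 ± 0.12. Both lie on the X chromosome, and WT b, the library with high *Xist*, was the highest for both (58.2 and 79.7 CPM). WT b was also the highest library for *Col4a3* and *Col4a4*, which lie on chromosome 1 (11.0 and 42.7 CPM). Without WT b the estimates of *Col4a5* and *Col4a6* were 0.17 and 0.05. That of *Col4a5* was also positive without KO a (0.03) and without KO b (0.08). The part of sex was not tested. The share of *Col4a1* in type IV collagen RNA per kilobase was 20.9 ± 1.42% in WT and 28.7 ± 4.16% in KO, without overlap, that of *Col4a2* 31.9% and 30.5%, and that of *Col4a4* 8.09% and 5.20%, again without overlap.

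Ratios within a library do not depend on its depth or scaling, and 3 of them were tested, each on levels per kilobase with the exact two-sided permutation test on log2 ratios, whose smallest p is 0.1 here. The ratio of *Col4a1* to *Col4a2* was 0.654, 0.670 and 0.646 in WT and 0.948, 0.773 and 1.11 in KO. All KO ratios lay above the narrow WT range, 1.42-fold higher on average (exact p = 0.1), and KO c was the highest. The ratio of *Lama3* to *Lamb3* was 0.252, 0.276 and 0.266 in WT and 0.317, 0.288 and 0.304 in KO. Here too the groups did not overlap, but the difference was small, 1.15-fold (exact p = 0.1). The ratio of *Lama3* to *Lama5*, the α chains of the 2 laminins, was 0.760, 0.684 and 0.847 in WT and 0.671, 0.750 and 0.601 in KO, and the groups overlapped (0.882-fold, exact p = 0.2). With 3 ratios tested at these p-values, none can pass a threshold of 0.05 before or after adjustment.

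**Figure D4:**
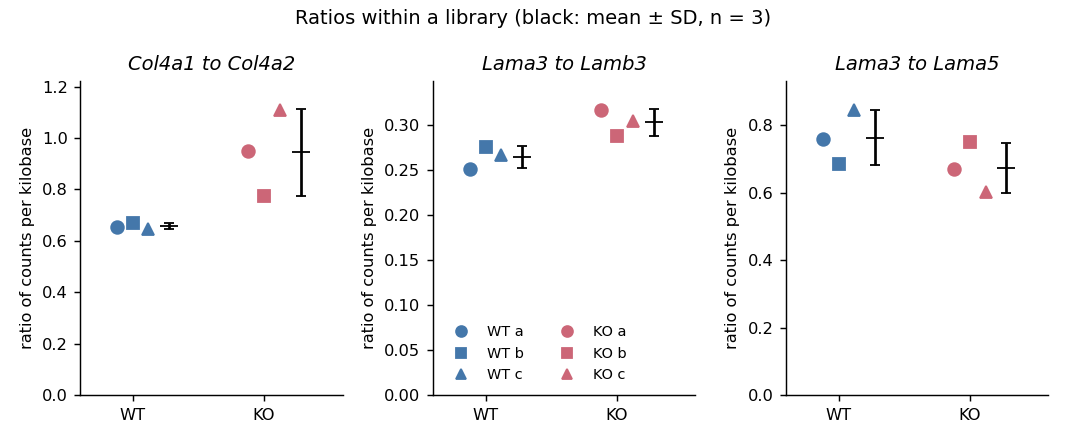
Ratios of levels per kilobase within each library (y axes, linear and starting at 0) for the 3 pairs tested, with 1 point per mouse. The *Col4a1* to *Col4a2* ratio lies between 0.646 and 0.670 in WT and between 0.773 and 1.11 in KO, and for *Lama3* to *Lama5* the groups overlap.

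The order of the 9 genes by level per kilobase of exon was led by *Lamb3* at 105 ± 10.1 CPM per kilobase in WT and 82.7 ± 15.5 in KO, above 98.4% and 97.8% of genes. *Lama5* followed (36.8 ± 6.21 and 37.2 ± 6.16), then *Lama3* (27.8 ± 2.06 and 24.9 ± 3.59), *Hspg2* (15.8 and 19.4), *Col4a2* (13.6 and 13.6), *Lamc1* (10.5 and 13.6), *Col4a1* (8.93 and 13.0), *Lamb1* (3.74 and 6.19) and *Nid1* (0.10 and 0.155). Over the 6 libraries *Lamb3* did not overlap with *Lama5*, *Lama5* did not overlap with *Lama3*, and *Nid1* lay below *Lamb1* in every library. The neighbours from *Lama3* down to *Lamb1* overlapped in their ranges. Within each library, *Lama3* lay above *Hspg2*, *Hspg2* above *Col4a2*, and *Col4a1* above *Lamb1*. *Lamc1* exceeded *Col4a2* in KO a, and *Col4a1* exceeded *Lamc1* in KO c, so the order of *Col4a2*, *Lamc1* and *Col4a1* is not settled. *Nid1* was the only one of the 9 near the lower end of all genes, above 28.4% of them in WT and 32.7% in KO.

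The other laminin chain genes given here were low or overlapped. *Lamb2* was at 145, 199 and 179 CPM in WT and at 123, 143 and 156 CPM in KO (log2 fold change -0.31 ± 0.13, adjusted p = 0.375). *Lama4*, the α4 chain of endothelial and mesenchymal basement membranes, was at 8.81, 29.0 and 18.1 CPM in WT and at 9.69, 9.38 and 14.8 CPM in KO. WT a lay below each KO library. The log2 fold change of -0.72 ± 0.33 (adjusted p = 0.440) became -1.06 (adjusted p = 0.0321, edgeR) without WT a and -0.25 (adjusted p = 0.792) without WT b. *Lama1* had 10 to 38 counts per library (-0.79 ± 0.36, adjusted p = 0.426) and *Lama2* 6 to 22 (-0.46 ± 0.49, adjusted p = 0.698). *Lamc3* had 2, 1 and 0 counts in WT and 8, 4 and 9 in KO (adjusted p = 0.198), too few in WT for a fold change.

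Genes with the most similar course over the 6 libraries were ranked by the root mean square difference of centred log2 CPM, among the 9640 genes with a mean of at least 10 CPM. The mean profile of *Lama3* and *Lamb3* was most closely matched by *Lgr6* (0.0179), a marker of follicle stem cells above the bulge, and others near it were *Crim1* (0.0299), *Klhl17* (0.0423) and *Pigv* (0.0469). The mean profile of *Lama5*, *Lamb1* and *Lamc1* was most closely matched by *Abtb2* (0.0614), *Rmnd5b* (0.0696), *Pitpnm2* (0.0740), *Synpo* (0.0784) and *Pmp22* (0.0841), with *Hspg2* at rank 35 (0.110). Among the 9 genes themselves, *Lama5* and *Col4a2*, which lie on different chromosomes, were the closest pair (0.0436), and *Lamb3* and *Lamb1* the farthest (0.587). *Lama3* and *Lamb3* differed by 0.113, *Lamc1* and *Hspg2* by 0.118, and *Col4a1* and *Col4a2* by 0.296. These are descriptions over 6 libraries, and within a library all genes share its depth and scaling.

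Other genes of the basement membrane pathway were taken from lists of matrix components, receptors, collagen folding and cross-linking enzymes, heparan sulfate enzymes and matrix-degrading enzymes. Among 31 other basement membrane genes, which include the further laminin and collagen chains, 10 had higher and 21 lower estimates in KO, none was called higher and 1 was called lower (median log2 fold change -0.10). This was *Hmcn1*, which encodes hemicentin-1, a large matrix protein, at 298, 257 and 306 CPM in WT and 150, 202 and 194 CPM in KO (-0.66 ± 0.12, adjusted p = 0.0413, edgeR). Of 13 receptor genes, 2 were higher and 11 lower, and only *Itga3* was called. Of 17 collagen folding and cross-linking genes none was called (7 higher, 10 lower, median -0.01). The smallest p-values belonged to *Leprel1*, a prolyl 3-hydroxylase gene (-0.56 ± 0.12, adjusted p = 0.0643), *Plod1*, a lysyl hydroxylase gene (-0.43 ± 0.13, adjusted p = 0.198), and *Pxdn*, whose product peroxidasin cross-links type IV collagen (0.34 ± 0.15, adjusted p = 0.416).

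Of 17 heparan sulfate genes, whose products make or trim the chains that perlecan carries, none was called (10 higher, 7 lower, median 0.07). Those with the smallest p were *Sulf2*, an extracellular sulfatase gene (0.23 ± 0.10, adjusted p = 0.377), *Ext1*, a chain polymerase gene (0.23 ± 0.10, adjusted p = 0.384), and *Hs2st1*, a sulfotransferase gene (0.19 ± 0.10, adjusted p = 0.498). Of 16 protease and other matrix-degrading enzyme genes, 8 were higher and 8 lower (median -0.05), and 1 was called. *Mmp2*, which encodes a gelatinase that cleaves type IV collagen, was at 220, 195 and 201 CPM in WT and 132, 159 and 138 CPM in KO (-0.53 ± 0.10, adjusted p = 0.0431, edgeR). The KO libraries of *Hmcn1* and *Mmp2* all lay below the WT libraries, both calls were held in 6 of 12 alternative settings, and both were lost without WT c (adjusted p = 0.368 and 0.366), without KO a (0.250 and 0.306) and without KO c (0.126 and 0.196). *Mmp2* and *Lama4* are also expressed by fibroblasts, whose summed markers were lower in KO while *Dcn* and *Vim* had higher means, as given above, and the part of such cells was not tested.

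**Figure D5:**
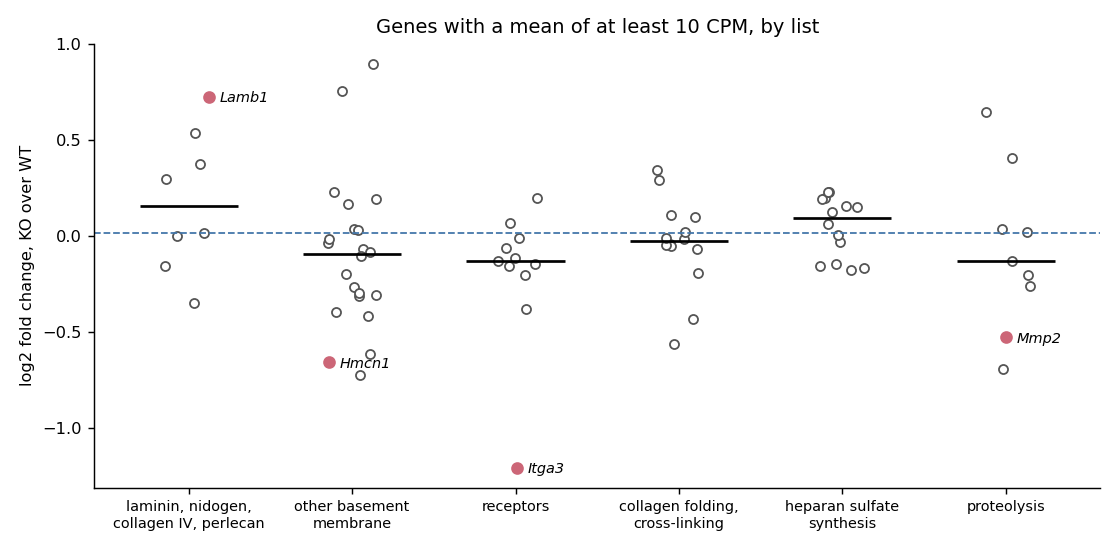
Log2 fold change of KO against WT (y axis) of each gene with a mean of at least 10 CPM in the basement membrane genes described here (8 of 9, all but *Nid1*) and the 5 pathway lists (x axis). Black bars are list medians and the dashed line is the median of all genes at that level. The genes called at an adjusted p below 0.05 are *Lamb1* (higher) and *Hmcn1*, *Itga3* and *Mmp2* (lower).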

How the data were processed

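RNA-seq was analysed for 3 WT and 3 KO libraries. The authors prepared stranded poly-A libraries, aligned reads to GRCm38 with TopHat2 2.1.0 and Bowtie 1.1 and counted uniquely mapped reads per Ensembl gene by strand; the deposited values are these counts, unnormalized. All 6 columns carry a genotype and no sample number of the labels, so libraries entered as unnumbered replicates.

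The 21681 genes with a count above 0 were tested in R 4.3.3 with the edgeR 4.0.16 quasi-likelihood test (TMM factors), comparing KO with WT, and p-values were adjusted by Benjamini-Hochberg over all of them. An adjusted p without a named tool comes from edgeR. Levels are TMM-scaled CPM. Exon lengths came from GENCODE M21 (22049 of 22295 identifiers), coordinates from the count table. Ratios were compared by exact permutation (scipy 1.17.1). The code was tested on simulated counts. Alternatives were limma-voom (limma 3.58.1), DESeq2 1.42.0, edgeR scaled by upper-quartile factors or by library size alone, a filterByExpr filter, a minimum of 10 counts in each library, and each library left out in turn. The floor of 3 counts covers counting error only, since reads carry no molecular identifiers, while each SE and SD includes the spread between mice.

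Named were the 9 genes, the other laminin, nidogen and type IV collagen chains, *Itga3*, and of each pathway list the genes called or else the 3 with the smallest p, with markers of HB and other cells and the 5 genes nearest to each of 2 mean profiles. The genes, lists and tests were chosen with earlier results of these data known. Some results under this rule are not reported here. Sex-linked genes and single markers other than the top gene of a list were named after their values were seen.

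Of the other marker lists, no gene was called in the fibroblast list, whose top gene *Col1a1* was at 85.4 ± 41.8 CPM in WT and 37.5 ± 9.82 CPM in KO. The summed level of smooth muscle and pericyte genes, nearly all *Cspg4*, was 403 to 445 CPM in WT and 248 to 426 in KO. That of suprabasal genes was 1382 to 1964 and 1750 to 1842, of immune genes 7.83 to 14.5 and 8.12 to 13.1, of melanocyte genes 6.93 to 14.4 and 11.6 to 12.7, of Schwann cell genes 32.4 to 48.5 and 39.9 to 44.6, and of adipocyte genes 0.138 to 0.397 and 0.0484 to 0.255 CPM.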

Additional observations from a re-analysis of the deposited data

How the results depend on the processing

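The number of genes called at an adjusted p below 0.05 was 146, with 24 under limma-voom, 546 under DESeq2, 15 after filterByExpr and 12 under a minimum of 10 counts in each library. With 1 library left out it was between 5 (without WT c) and 521 (without WT a), with 10 without KO a and 30 without KO c. Of the 9 genes, *Lamb1* was the 1 called, and the number was 0 under limma-voom, after filterByExpr and under the minimum of 10 counts, and 0 to 1 with a library left out. *Lamb1* was called in 6 of the 12 alternatives, with adjusted p from 0.000123 (DESeq2) to 0.368. The adjusted p of *Lamc1* ranged from 0.0640 to 0.532, that of *Lamb3* from 0.214 to 0.780 and that of *Col4a1* from 0.195 to 0.769. The direction of some estimates turned. *Lama5* was at -0.0018 with upper-quartile factors and between -0.11 and 0.13 with a library left out. *Col4a2* was at -0.0023 under limma-voom, -0.0050 with library size only, -0.015 with upper-quartile factors, -0.0046 after filterByExpr, -0.0064 under the minimum of 10 counts, and between -0.15 and 0.13 with a library left out. With a library left out, *Lama2* (6 to 22 counts) lay between -0.74 and 0.029, *Col4a5* between -0.16 and 0.17 and *Col4a6* between -0.15 and 0.047. Of 215 alternative values over 18 single genes, 188 kept their direction and side of the threshold. The 3 ratios kept their direction in each alternative tried. The cause of these shifts was not tested. No paired analysis was possible because the columns of the count table carry no replicate number of the labels. *Nid1* had 11 to 31 counts per library, and its estimate is imprecise.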

Other observations

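Some further ratios of levels per kilobase were computed after the values were seen, and they are given without a test. *Lamb1* to *Lamb3* was 0.0338, 0.0365 and 0.0367 in WT and 0.0908, 0.0546 and 0.0854 in KO, 2.11-fold higher on average. *Lamb1* to *Lamc1* was 0.363, 0.362 and 0.345 in WT and 0.480, 0.423 and 0.462 in KO. In both ratios all KO libraries lay above all WT libraries.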
